A study of Mus musculus with 9 samples.

Results

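The immunity-related GTPases (IRG family) are large interferon-inducible GTP-binding proteins of mice, and 7 of their genes are described here: Irgm1, Irgm2, Igtp, Iigp1, Ifi47, Tgtp1 and Tgtp2. They were chosen by gene symbol, and all 7 were present among the 27179 genes of the deposited table. Livers of C57BL/6J mice labelled as wild type were compared after retro-orbital injection of AAV8 at 17 months of age, at a dose of 3e11 vector genomes per mouse, with harvest of the m-lobe 3 weeks later. In every mouse the vector carried the DNA-cutting enzyme saCas9, driven by the hepatocyte promoter TBG, and a guide RNA driven by U6. The guide was directed at the Rosa26 locus in the control group (sgRosa26, 4 libraries, A to D) and at Ccnd1, the gene of cyclin D1, in the other (sgCcnd1, 5 libraries, E to I). The letters are names in column order, because the columns carry a number that no label explains. The labels name no sex, batch or fraction of edited cells, and according to the series title the question was how loss of Ccnd1 in hepatocytes of aged mice bears on inflammatory signalling.

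IRG proteins defend cells against microbes that live inside a vacuole. Interferon-gamma, released mainly by T and NK cells, binds the receptor encoded by Ifngr1 and Ifngr2, activates the kinases JAK1 and JAK2 and induces the transcription factor IRF1. Promoters of induced genes often hold GAS sites or interferon-stimulated response elements (ISRE), and IRF1 binds the latter. Effector IRG proteins (the GKS class: Iigp1, also called Irga6; Tgtp1 and Tgtp2, or Irgb6; Ifi47, or Irgd) coat and break the vacuole. Regulators (the GMS class: Irgm1, Irgm2 and Igtp, also called Irgm3) sit on the membranes of the cell and hold the effectors inactive there. In liver, hepatocytes, endothelial cells and macrophages can all respond to interferon, and bulk RNA of the lobe adds their transcripts together.

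The 6 members other than Iigp1 lie in 2 groups on chromosome 11 (GRCm38.p6). Irgm1 (48865245 to 48871420), Tgtp1 (48985329 to 48992246), Tgtp2 (49057196 to 49064212) and Ifi47 (49076587 to 49096987) occupy 231.7 kb. Igtp (58199556 to 58207592) and Irgm2 (58214977 to 58222783) are neighbours on the plus strand, and with Gm12250, the gene of the effector Irgb10, they occupy 38.9 kb. RefSeq promoters, from 250 bases before to 50 bases after a start site, were found for these 6 members. Both strands were searched for an ISRE core (GAAA, 2 bases of any kind, GAAA) and for a GAS core (TTC, 3 bases of any kind, GAA). Of the 6, 5 held the first, against 3.44% of all 32851 promoters, and 4 held the second, against 8.30%. In Igtp, Irgm2, Tgtp1 and Tgtp2 the GAS core ended exactly 2 bases before the ISRE core. The joined pattern (GAS core, 2 bases of any kind, ISRE core), searched after these promoters had been seen, stood in 5 of the 32851 promoters: those of these 4 genes and of Gm12185, a further IRG gene on chromosome 11. The members are paralogs, so their promoters are not independent of each other, and a match describes letters and not binding.

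The stretches below are shown because 4 of them hold this arrangement, and Irgm1, with ISRE cores alone, is set beside them. Each has 51 bases, 5′ to 3′ on the strand of the gene, with matches to either core in capitals. They cover chr11:58199491-58199541 (plus strand) for Igtp, chr11:58214882-58214932 (plus) for Irgm2, chr11:48992304-48992354 (minus) for Tgtp1, chr11:49064263-49064313 (minus) for Tgtp2 and chr11:48871425-48871475 (minus) for Irgm1.
Igtp: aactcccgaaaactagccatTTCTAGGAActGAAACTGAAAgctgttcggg
Irgm2: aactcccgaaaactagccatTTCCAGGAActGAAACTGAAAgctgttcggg
Tgtp1: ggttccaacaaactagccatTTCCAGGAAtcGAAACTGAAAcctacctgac
Tgtp2: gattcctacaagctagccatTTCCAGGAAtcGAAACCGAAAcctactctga
Irgm1: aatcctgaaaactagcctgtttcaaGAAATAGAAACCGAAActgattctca
Igtp and Irgm2 were identical at 50 of the 51 bases, and Tgtp1 and Tgtp2 at 42. Irgm1 held 2 overlapping ISRE cores and no GAS core, and was identical to the others at 26 to 32 bases. The ISRE core lay 34 bases before the start in Igtp, 64 in Irgm2, 77 in Tgtp1 and 70 in Tgtp2, and the nearer core of Irgm1 lay 24 bases before it. The promoter of Ifi47 held neither core in these 300 bases.

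Reads of near-identical genes can be split or lost in counting. Of all stretches of 100 bases in the GENCODE M21 transcripts of Tgtp1, 73.2% also occurred in transcripts of another gene, mostly Tgtp2, and 76.8% of those of Tgtp2 occurred in Tgtp1. The separate values of these 2 genes are therefore uncertain, and their sum is given too. Igtp shared 5.16% of its stretches with Irgm2, and the share was 0.561% in Ifi47 and 0 of 5936 and 0 of 5807 stretches in Iigp1 and Irgm1.

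Depth was 10840595 to 20176201 gene-assigned reads per library, and Ccnd1 was at 625 to 867 normalized counts in the 4 sgRosa26 libraries and 325 to 428 in the 5 sgCcnd1 libraries, which do not overlap. Normalized counts are reads divided by the size factor of the library. Library H of the sgCcnd1 group stands apart: Ddx3y, a Y-linked gene, was at 2.00 normalized counts there and at 810 to 1154 in the other 8. Xist, which female cells express, was at 2.00 in H and at 0 to 3.92 in the other 8, so H has neither Y-linked RNA nor Xist above the level of the rest. The results are also given without H. A gene was tested if its mean was at least 10 normalized counts, which 12993 genes and all 7 members met. The test was limma on log2(normalized count + 1), two-sided, with Benjamini-Hochberg adjustment over all genes tested, and fold changes are on that scale. Nothing in the labels says more of the replicates than that they are separate mice or samples. The p-values set each group difference against the spread between these replicates.

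All 7 IRG genes had lower mean levels in sgCcnd1, with levels from 42.25% of the control mean in Tgtp1 to 87.85% in Iigp1, but 0 of the 7 passed the adjusted threshold of 0.05, where 0.00770% of all genes tested passed as lower (limma adjusted p from 0.253 to 0.494). At an unadjusted p under 0.05, 5 of 7 members were lower, against 5.74% of all genes, and 0 were higher, against 5.22%. Without H, 4 of 7 were lower, against 4.28% of all genes. The members' median log2 fold change was -0.44, and that of all genes tested was 0.01. The fitted fold change was below 0 for 7 of 7 members and for 47.1% of all genes. In 0 of 7 members did the groups fail to overlap, where 1.97% of all genes were lower and 1.92% higher without overlap. Without C, 2 of 7 members (Igtp and Irgm1) were lower without overlap, against 3.26% of all genes, and without E 4 of 7, against 4.25%. Leaving out any other single library gave 0 of 7. In the 4 members E was the only sgCcnd1 library inside the control range. In Igtp and Irgm1 C was the only control below E, so separation without C or without E follows from leaving that library out. DESeq2 on whole reads recovered from the deposited values called 2 members lower, Igtp and Irgm1, against 0.585% of all genes lower and 0.316% higher. Without H it called 0 members, against 0.192% of all genes. Fewer cells of a type and less RNA per cell cannot be told apart in such bulk samples.

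**Figure D1:**
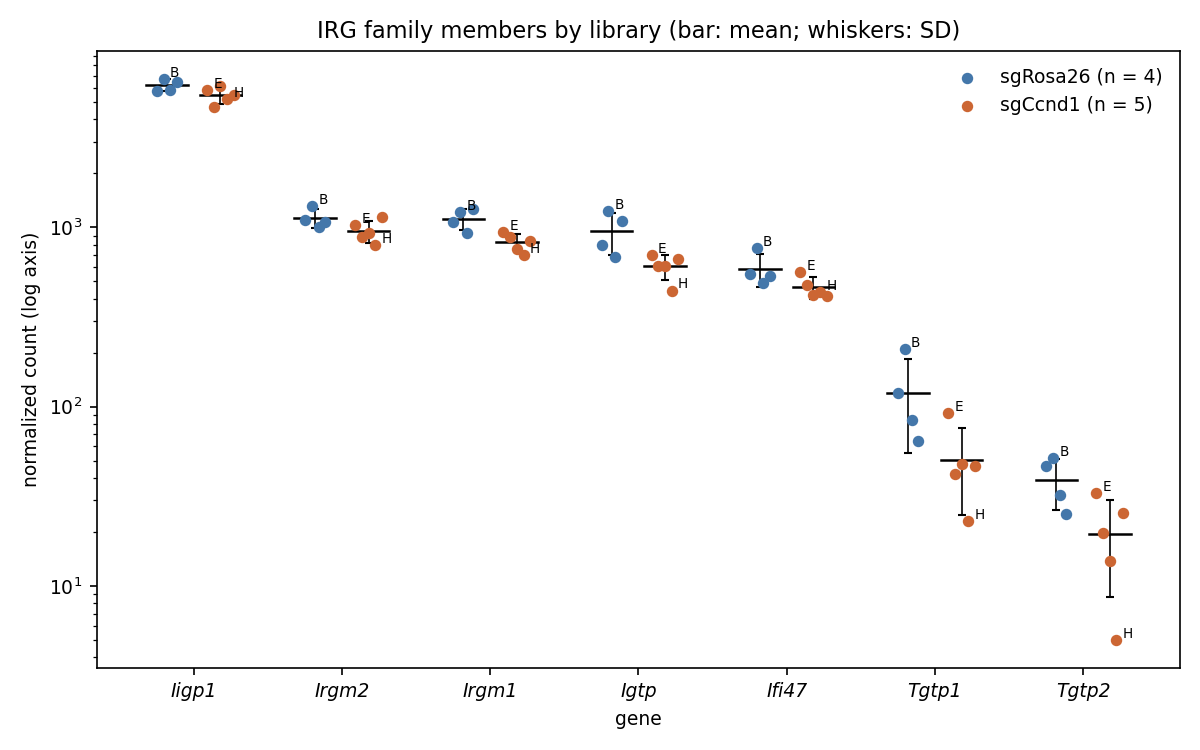
Normalized counts (log axis) of the 7 IRG genes in each library, sgRosa26 (n = 4) in blue and sgCcnd1 (n = 5) in orange, with the mean as a bar and the SD as whiskers; libraries B, E and H are lettered. The genes span from 6737 normalized counts of Iigp1 in B to 4.998 of Tgtp2 in H, and the 2 groups overlap for every gene.

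Among the regulators, Irgm1, which is also needed for autophagy of microbes and for blood stem cell upkeep, was at 1064, 1213, 935 and 1263 normalized counts in A to D and at 938, 886, 756, 700 and 842 in E to I. All sgCcnd1 libraries except E lay below every control, and E exceeded the lowest control, C, by less than 4 normalized counts. The means were 1119 ± 149 (SD, n = 4) and 824 ± 96.7 (SD, n = 5), a difference of -0.44 ± 0.11 (log2 fold change ± SE, limma unadjusted p = 0.00204, adjusted p = 0.253). DESeq2 gave an adjusted p of 0.0449, and of 0.191 without H.

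Igtp, which in mice acts on the endoplasmic reticulum and on lipid droplets, was at 798, 1227, 686 and 1086 normalized counts in A to D and at 700, 609, 605, 444 and 666 in E to I. Here too 4 of 5 sgCcnd1 libraries lay below every control, and E lay above C alone. The means were 949 ± 250 (SD, n = 4) and 605 ± 98.3 (SD, n = 5), and the log2 difference was -0.63 ± 0.17 (SE, limma unadjusted p = 0.00338, adjusted p = 0.266). The DESeq2 adjusted p was 0.0433, and 0.159 without H. The control spread of Igtp came from the high values in B and D.

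Irgm2, the Golgi-associated regulator, was at 1097, 1318, 1008 and 1066 normalized counts in A to D and at 1024, 884, 924, 798 and 1145 in E to I. Its groups overlapped further, with E and I inside the control range. On the log2 scale sgCcnd1 minus sgRosa26 was -0.24 ± 0.11 (SE, limma unadjusted p = 0.0598, adjusted p = 0.473), and -0.16 without control B (0.773). The promoter stretches of Igtp and Irgm2 shown above differ at 1 base of 51, while their log2 ratio (Igtp to Irgm2) was -0.46, -0.10, -0.56 and 0.03 in A to D and -0.55, -0.54, -0.61, -0.85 and -0.78 in E to I. The ratio was lowest in H and I, and C alone of the controls lay among sgCcnd1 values. No test of this ratio is given, because the pair was picked after its values were seen.

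Among the effectors, Iigp1, the best studied of the vacuole-coating IRG proteins, was the most abundant, at 5795, 6737, 5810 and 6483 normalized counts in A to D and 5807, 4694, 6112, 5168 and 5480 in E to I. Per kilobase of exon it took 42.5% to 54.7% of the summed level of the 7 genes in each library. The means of 6206 ± 478 (SD, n = 4) and 5452 ± 552 (SD, n = 5) differ by -0.19 ± 0.10 in log2 (SE), the smallest in size of the 7 (limma unadjusted p = 0.0698, adjusted p = 0.494). E and G lay within the control range. It rests on 3861 to 7686 reads per library, so counting error is small beside the spread between animals.

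Ifi47, or Irgd, was at 552, 762, 487 and 537 normalized counts in A to D and 565, 477, 421, 436 and 413 in E to I. Library B was highest, and E alone of the sgCcnd1 libraries lay inside the control range. The difference was -0.33 ± 0.13 in log2 (SE, limma unadjusted p = 0.0318, adjusted p = 0.404), and without H its unadjusted p was 0.0610. Without control B the difference was -0.19 (limma adjusted p = 0.724).

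Tgtp1 was at 119, 209, 84.5 and 64.1 normalized counts in A to D and 92.2, 42.1, 48.0, 23.0 and 46.8 in E to I. Tgtp2 was at 46.7, 51.7, 31.9 and 25.3 in A to D and 32.8, 19.7, 13.7, 4.998 and 25.5 in E to I. B was the highest and H the lowest library for both, and E lay among the controls, as did I for Tgtp2, by less than 1 normalized count. The log2 fold changes were the largest in size of the 7, -1.22 ± 0.38 (SE) for Tgtp1 (limma unadjusted p = 0.00679, adjusted p = 0.304) and -1.13 ± 0.43 for Tgtp2 (0.0220 and 0.3735). The sum of both, which does not depend on how shared reads were split between them, went from 158 ± 75.6 (SD, n = 4) to 69.8 ± 35.1 normalized counts (SD, n = 5), or -1.20 in log2 (limma adjusted p = 0.306). Without H the value of Tgtp2 was -0.75. Tgtp2 rests on 5 to 59 reads per library.

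**Figure D2:**
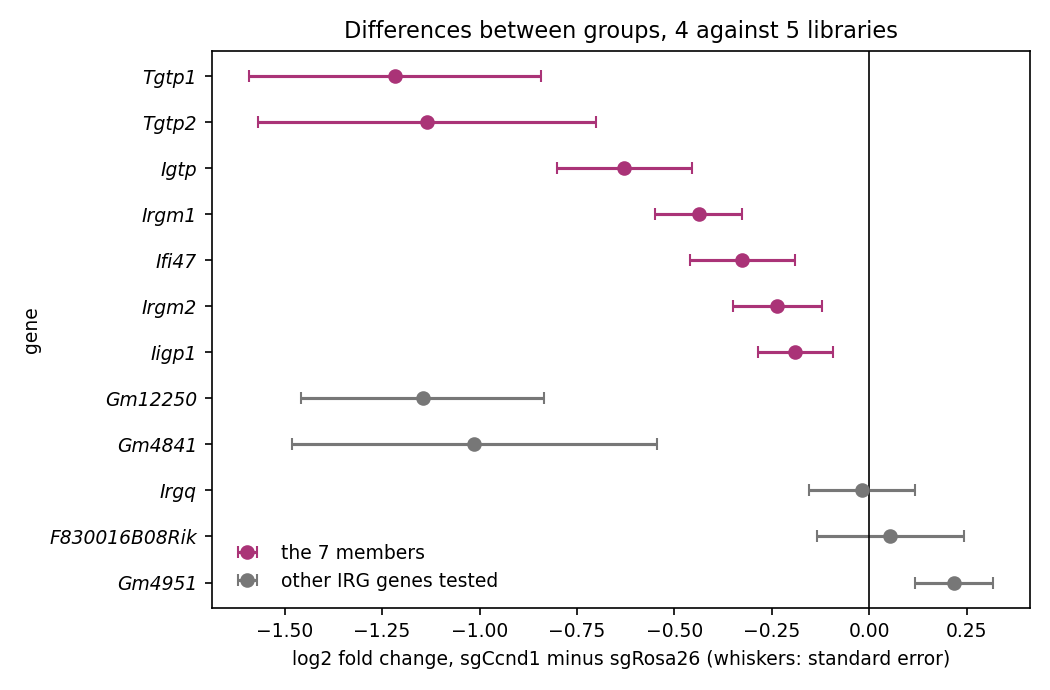
Log2 fold change (sgCcnd1 minus sgRosa26) with its standard error for the 7 members (purple) and the 5 other IRG genes tested (grey). The members range from -1.22 (Tgtp1) to -0.19 (Iigp1), and Gm4951 stands at 0.22 on the other side of 0.

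Per kilobase of GENCODE exon, the order in sgRosa26 was Iigp1 at 1066 ± 82.0 normalized counts per kilobase (SD, n = 4), Igtp at 469.5 ± 124, Irgm2 at 304 ± 36.8, Ifi47 at 236 ± 49.1, Irgm1 at 192.5 ± 25.6, Tgtp1 at 37.2 ± 20.1 and Tgtp2 at 13.2 ± 4.22. In sgCcnd1 the order was the same, from 936 ± 94.8 for Iigp1 to 6.58 ± 3.64 for Tgtp2 (SD, n = 5). Igtp and Irgm2 differed by less than 2 SD of Igtp in the controls and by less than 1 in sgCcnd1 (299 ± 48.6 and 259 ± 36.3), and Ifi47 and Irgm1 by less than 1 SD of Ifi47 in the controls. The authors' exon models are not given in the sources used here, so these lengths may differ from those counted.

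The libraries ranked alike for most members. B held the highest value of 6 of the 7 genes and D that of Irgm1, and H held the lowest of 5, with Iigp1 lowest in F and Ifi47 lowest in I. The mean deviation of the 7 genes from their own means was 0.33, 0.72, 0.08 and 0.19 (log2) in A to D and 0.15, -0.26, -0.30, -0.77 and -0.13 in E to I. E thus exceeded C, and the other 4 sgCcnd1 libraries lay below every control. E was also the sgCcnd1 library with the most Ccnd1, 428 normalized counts against 325 to 370. The least Ccnd1 was in I (325), whose mean deviation (-0.13) lay above those of F, G and H. Among the controls, C had the least Ccnd1 (625) and the lowest mean deviation, but D had the most Ccnd1 (867) and lay below A and B. Whether IRG levels follow Ccnd1 was not tested. Pearson r between members over the 9 libraries, given as a description, ran from 0.49 (Iigp1 with Tgtp2) to 0.95 (Igtp with Irgm1), with a median of 0.78 over 21 pairs. After the mean of each group was subtracted it ran from 0.17 to 0.89, with a median of 0.60, and was positive for all 21 pairs. The libraries share depth and scaling across genes, which such values include.

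**Figure D3:**
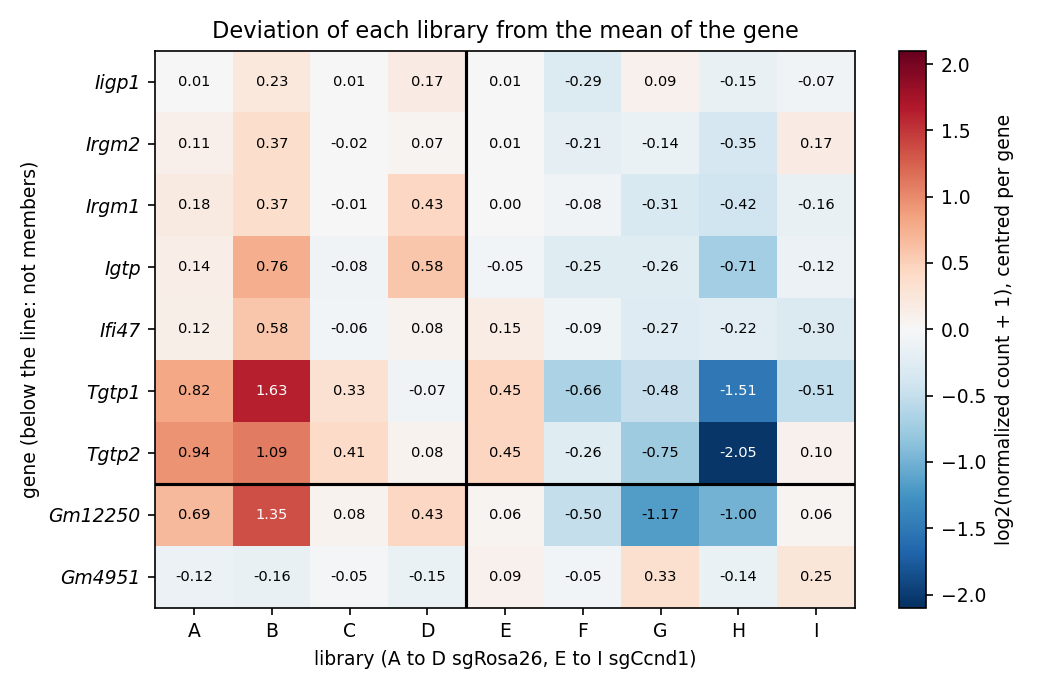
Deviation of log2(normalized count + 1) in each library from the mean of the gene over the 9 libraries, for the 7 members (above the line) and for Gm12250 and Gm4951. Library B is 0.23 to 1.63 above the mean for all 7 members, and H is lower than the mean for all 7, from -0.155 in Iigp1 to -2.05 in Tgtp2.

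Of 17 further IRG symbols listed, 10 were in the table and 5 passed the filter on low values. Gm12250, whose product Irgb10 acts on bacterial membranes and whose promoter held 2 ISRE cores and a GAS core, was at 66.4, 106, 43.2 and 55.4 normalized counts in A to D and 42.7, 28.6, 17.6, 19.99 and 42.6 in E to I. All 5 sgCcnd1 libraries lay below every control, E and I by less than 1 normalized count. It differed by -1.15 ± 0.31 in log2 (SE, limma adjusted p = 0.259), and DESeq2 gave an adjusted p of 0.0433 (0.1765 without H). Gm4841 was at 20.9, 127, 33.8 and 21.4 in A to D and at 12.0 to 31.3 in sgCcnd1 (a log2 difference of -1.01, limma adjusted p = 0.454), and without B the fold change was -0.43.

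Gm4951, a further IRG gene, had a higher mean in sgCcnd1. It was at 1632, 1587, 1718 and 1604 normalized counts in A to D and 1885, 1714, 2236, 1617 and 2113 in E to I, with E, G and I above every control. Its log2 difference was 0.22 ± 0.10 (SE, limma unadjusted p = 0.0501, adjusted p = 0.454). Without H it was 0.27 (limma unadjusted p = 0.0165, adjusted p = 0.543). Irgq, a relative, was at -0.02 and F830016B08Rik at 0.05 (limma adjusted p = 0.971 and 0.942), and the sign of each turned in some alternatives. Gm5431, which failed the filter, was at 8.45 to 12.3 normalized counts in the controls and at 2.69 to 3.05 in E to H, but at 12.8 in I. Gm12185, 9930111J21Rik1, 9930111J21Rik2 and Irgc1 had at most 8 reads in any library. BC023105, an IRG-like pseudogene named after its values were seen, was at 500 ± 368 (SD, n = 4) and 194 ± 101 normalized counts (SD, n = 5), a log2 difference of -1.28 (limma adjusted p = 0.334), and -0.85 without B.

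Upstream of the IRG genes, the ligand Ifng had 1, 2, 1 and 3 reads in A to D and 1, 0, 0, 0 and 1 in E to I, too few for a comparison. The receptor chains Ifngr1 and Ifngr2 were at log2 fold changes of -0.14 and -0.20 (limma adjusted p = 0.565 and 0.543), and Jak1 and Jak2 at 0.05 and 0.08 (0.906 and 0.7501). For the type I pathway, Ifnar1, Ifnar2 and Tyk2 were at 0.10, 0.02 and 0.04 (limma adjusted p from 0.669 to 0.963). Leaving out 1 library moved several of these small values over 1.5 times. Ifngr2 was at -0.30 without D, Jak2 at 0.04 without B, Ifnar1 at 0.15 without A and Tyk2 at 0.01 without E, and the sign turned for Jak1 (-0.02 without B and without D) and Ifnar2 (-0.07 without B, -0.08 without G). Over these 2 lists 0 of 7 genes tested passed in either direction, also when unadjusted (5.74% of all genes lower, 5.22% higher) or with DESeq2.

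Among transcription factors, Irf7, a type I interferon amplifier, was at -0.57 (limma adjusted p = 0.266) and Irf9, a transcription factor of the type I response, at -0.28 (0.372). Irf8, a myeloid factor, was at -0.39 (0.512), and at -0.25 without B. Irf1 was at -0.30 (0.584), at -0.17 without B and at -0.14 without H. DESeq2 called Irf7 lower (adjusted p = 0.0491), but not without H (0.1506). Among 7 inhibitors of the pathway, Usp18, which removes ISG15 and blocks IFNAR2, was at -0.64 (limma adjusted p = 0.279), Ptpn1 at -0.21 (0.455, and -0.14 without A), Ptpn6 at -0.14 (0.575) and Ptpn2 at 0.13 (0.650, and 0.07 without D), and 0 passed with limma or DESeq2, while 1 was lower when unadjusted (5.74% of all genes).

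Genes downstream of the same signals had these counts. All 11 guanylate-binding protein genes, a second family of interferon-inducible GTPases, were tested. Their median log2 fold change was -0.62, with 0 past the threshold in limma, 8 lower when unadjusted (5.74% of all genes), and Gbp2 and Gbp3 called lower by DESeq2 (0.585% of all genes). Without H, DESeq2 still called Gbp3 (adjusted p = 0.00364) but not Gbp2 (0.0682), against 0.192% of all genes. Gbp3 stood at -0.80 (limma adjusted p = 0.1355), Gbp2 at -1.10 (0.255), Gbp6 at -0.78 (0.282) and Gbp4 at -0.72 (0.328). Of 19 other interferon-gamma targets tested, 19 had a fold change below 0 (47.1% of all genes), with a median of -0.29. Of the 19, 0 passed the threshold in limma and 7 were lower when unadjusted (5.74% of all genes). DESeq2 called 3 of the 19 (0.585% of all genes), Ciita, the class II transactivator (-1.21), Ly6a (-0.86) and Cxcl10, a T cell chemokine (-1.16). It did not call Cd274, the gene of PD-L1 (-0.86). The limma adjusted p of these 4 genes ran from 0.2498 to 0.272. Without H, DESeq2 called 0 of these targets (0.192% of all genes), and Cxcl10 was at -0.73 without B, where it was highest. Of 20 type I interferon targets, 20 were below 0 (47.1% of all genes), with a median of -0.57 and 0 past the threshold in limma. Among them 14 were lower when unadjusted, 7 were called by DESeq2 and 6 did not overlap between groups (5.74%, 0.585% and 1.97% of all genes). Without H, DESeq2 called 4 (0.192% of all genes). The smallest limma adjusted p-values of the 20 were 0.173 for Cmpk2, 0.225 for Rsad2, and 0.227 for Ifi44 and Ifit1, at -0.81 to -0.87.

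Proteins of LC3 conjugation and of ubiquitin tagging bring IRG and guanylate-binding proteins to a vacuole. Of 16 such genes tested, 13 had a fold change above 0 and 3 below it (47.1% of all genes were below 0), with a median of 0.11, and 0 passed in limma or DESeq2. Gabarapl1, an LC3 relative, was at 0.30 (limma unadjusted p = 0.0266, adjusted p = 0.384), the only 1 of the 16 under 0.05 when unadjusted, a share near the 5.22% of all genes that were higher. Traf6, a ubiquitin ligase, was at 0.21 (limma adjusted p = 0.534). Ubd, an interferon-inducible ubiquitin-like protein, was at -1.09 (limma adjusted p = 0.512) and Rnf213, a ubiquitin ligase, at -0.29 (0.519), which was -0.17 without A and -0.44 without B.

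**Figure D4:**
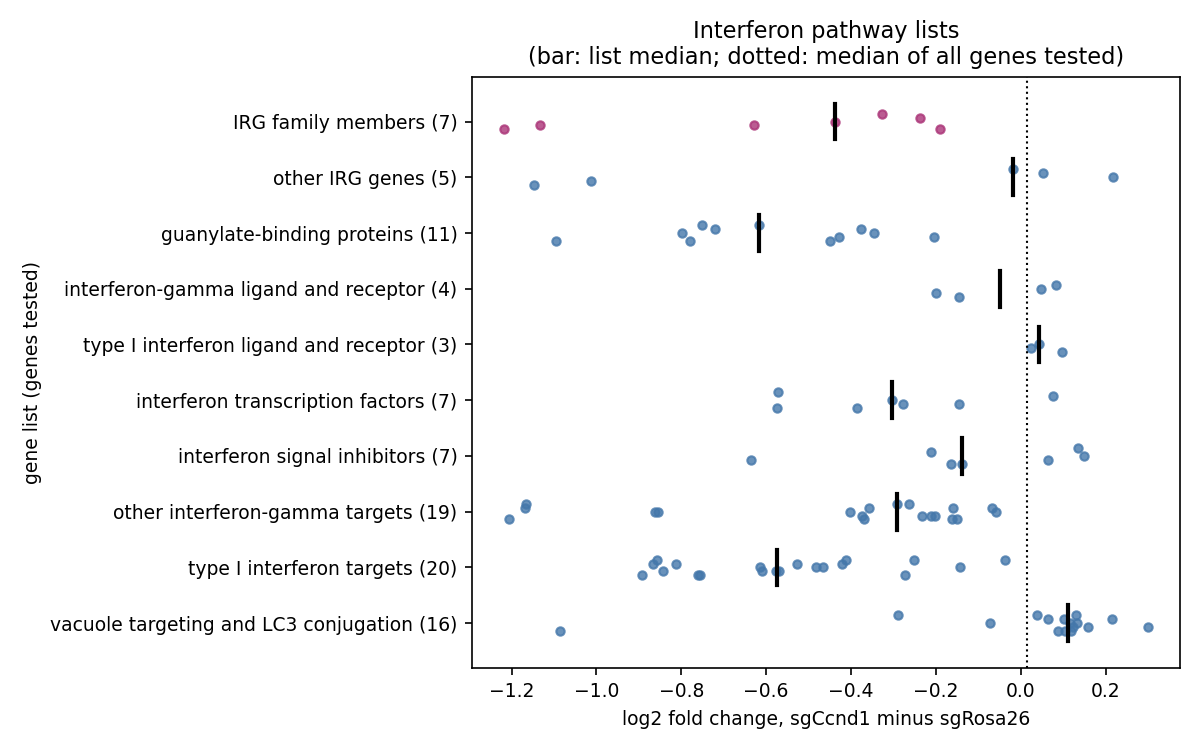
Log2 fold change of each gene tested (points) in the IRG family, among other IRG genes and in 8 interferon pathway lists, with the list median as a bar and the median of all 12993 genes tested, 0.01, as a dotted line. The medians lie at -0.44 for the IRG members, -0.62 for guanylate-binding proteins, -0.57 for type I targets and 0.11 for LC3 conjugation genes.

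Some markers of other cell types differed between the libraries as well. The 14 T and NK cell markers summed to 179.5 to 466 normalized counts in sgRosa26 and to 74.97 to 326 in sgCcnd1. Their sum was highest in B and lowest in H, as for most IRG genes, and highest of the sgCcnd1 group in E. The dendritic cell and cholangiocyte marker sums were also highest in B and lowest in H. Among the controls the T and NK cell sum was lowest in A, whereas the mean deviation of the IRG members was lowest in C. Of the 9 T and NK cell markers tested, 9 had a fold change below 0, against 47.1% of all genes. When unadjusted 7 were lower, against 5.74% of all genes, and 3 without H, against 4.28%, with 0 called by limma or DESeq2, whose adjusted p was undefined for 5 of the 9. Cd3e was at -1.52, Ccl5 at -1.41, Trac at -1.45 and Cd4 at -0.65 (limma adjusted p from 0.320 to 0.3875). The 14 macrophage and Kupffer cell markers summed to 6196 to 6918 in sgRosa26 and to 4797 to 5903 in sgCcnd1, without overlap, with the highest sum in D, the lowest in I, and B the lowest of the controls. Of the 14 tested, 11 had a fold change below 0 and 3 above it, up to 0.11, with a median of -0.27, and 5 were lower when unadjusted (5.74% of all genes). DESeq2 called Mpeg1 (-0.62), Lyz2 (-0.44) and Cd68 (-0.71) lower (0.585% of all genes), Cd68 no longer without H (adjusted p = 0.1315), none of which passed in limma (adjusted p from 0.225 to 0.245), while C1qa was at -0.35 (0.326).

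Other marker sums overlapped between the groups. B and plasma cell markers, 8 in number, ranged over 1734 to 4080 normalized counts in sgRosa26 and 1300 to 3957 in sgCcnd1, with Mzb1 at -0.87, Igkc at -0.66, Ms4a1 at -0.50 and Cd79a at -0.41, or -0.22 without I (limma adjusted p from 0.354 to 0.607). The 6 dendritic cell markers ranged over 161 to 216.5 and 103 to 172, with Itgax at -0.78 (limma adjusted p = 0.417) and at -0.50 without H, and the 6 neutrophil markers over 49.96 to 122 and 32.8 to 59.7. The 7 endothelial markers ranged over 1952 to 2970 and 2182 to 3120, the 7 stellate cell markers over 3138 to 5399 and 2830 to 4361 and the 5 cholangiocyte markers over 928 to 1906 and 750 to 1165. Of the 7 stellate cell markers 6 had a fold change below 0, with a median of -0.50, against -0.44 for the IRG members, and 3 were lower when unadjusted (Pdgfrb, Col3a1 and Col1a1, the last not without H), against 5.74% of all genes, with 0 called by limma or DESeq2. Hepatocyte markers, 8 in number, summed to 1.758e+06 to 2.051e+06 normalized counts in sgRosa26 and to 1.66e+06 to 2.124e+06 in sgCcnd1, with a median log2 fold change of 0.10 and 0 past any of these thresholds. No marker list had a gene at 0 in all 9 libraries. The part of T and NK cells, macrophages or any other cell type in the IRG values was not tested.

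**Figure D5:**
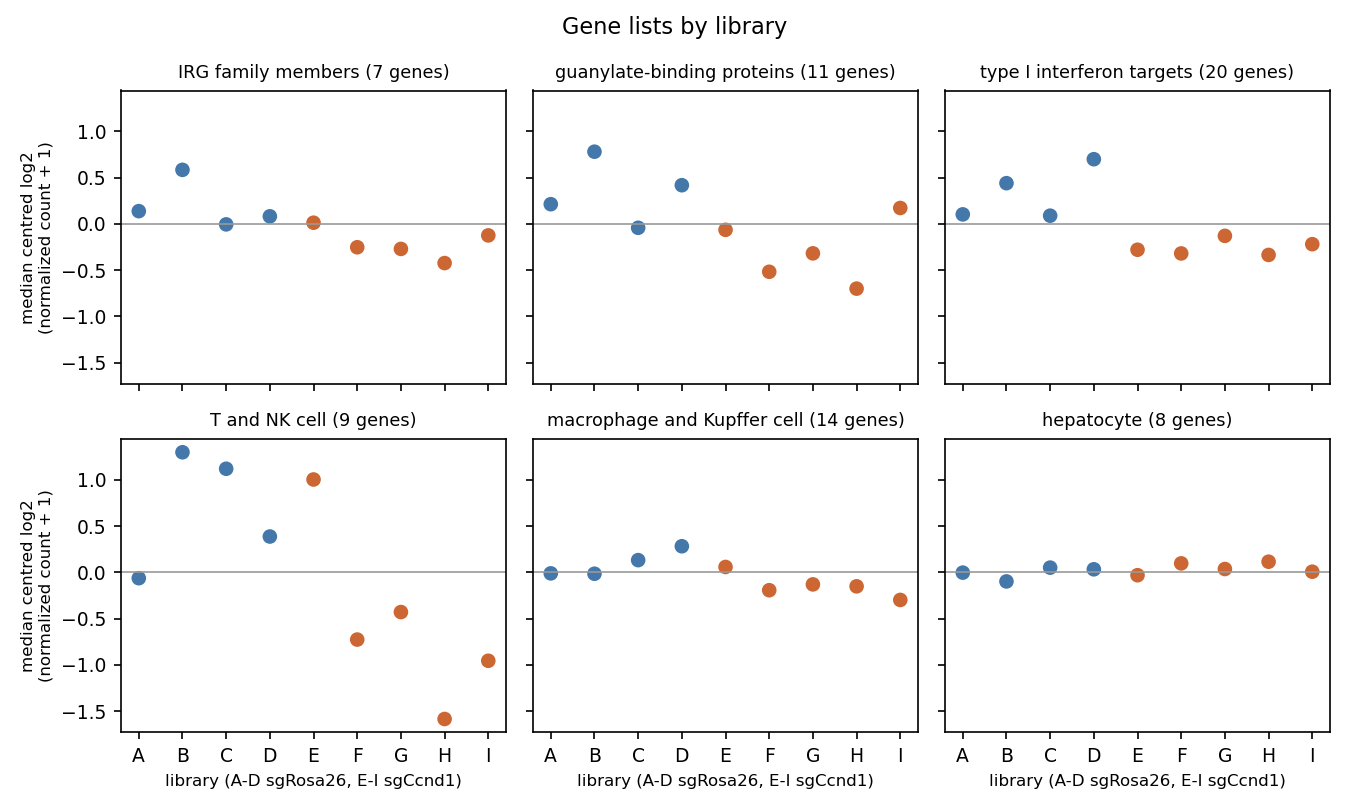
Median over genes of log2(normalized count + 1), centred on the mean of each gene, by library, for 6 gene lists, with sgRosa26 in blue and sgCcnd1 in orange. IRG members, guanylate-binding proteins and T and NK cell markers are all highest in B (0.58, 0.78 and 1.30) and lowest in H (-0.42, -0.70 and -1.58). Among the controls the lowest is C for IRG members and A for T and NK cell markers. Hepatocyte markers stay between -0.10 and 0.12.

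The genes whose pattern was most like the mean of the 7 members, by Pearson r over the 9 libraries, were H2-DMb1 (0.980), Slc15a3 (0.974), Ctss (0.973), H2-Eb1 (0.970), H2-Aa (0.967), H2-Ab1, Mrc2 and Tgfbi (0.964 each), Clec12a (0.963) and Clcf1 (0.957). Of these 10, H2-DMb1, H2-Eb1, H2-Aa and H2-Ab1 encode MHC class II or its peptide loader, and Ctss encodes cathepsin S, a protease of class II loading. After the mean of each group was subtracted, their r was between 0.911 and 0.969. These genes were picked as the highest in r over the same 9 libraries, so high values are part of the choice. The mean of the 7 members weighs Tgtp1 and Tgtp2 most, because they vary most. When each member was scaled to the same spread, H2-DMb1 ranked 2 and H2-Eb1 18, and H2-Aa and H2-Ab1 left the first 25. Of the 10, DESeq2 called 1, against 0.585% of all genes lower, H2-Aa (1075 ± 211 normalized counts, SD, n = 4, against 583 ± 209, SD, n = 5; DESeq2 adjusted p = 0.0380, and 0.0330 without H), and 0 passed in limma (adjusted p from 0.255 to 0.454).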

How the data were processed

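Poly(A) RNA of liver pieces was sequenced from 9 mice, and the members and gene lists were chosen with earlier results of these data known. The authors deposited 1 table of a never-negative signal that its name calls normalized counts. Per the submitters' processing notes the tools were Trim Galore 0.6.7, HISAT2 2.2.1, featureCounts 2.0.3, FastQC, MultiQC and DESeq2, with build mm10 (GRCm38). The annotation, the use of strand and the handling of reads with several matches are not given in the sources used here. Dividing a column by 1 number per library turned 100% of its values into whole reads (tolerance 0.001 reads), so the values equal gene-level read counts divided by a size factor. Columns were matched to groups only. Within a group, chi-square per degree of freedom between libraries was 14.1 to 46.5, so all 9 counted as separate samples.

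The test was limma 3.58.1 (R 4.3.3), using lmFit, then eBayes with trend, without covariates, on log2(value + 1), for genes with a mean of at least 10. Alternatives were edgeR 4.0.16 (quasi-likelihood) and DESeq2 1.42.0 on recovered reads (edgeR called 0 members), and the settings listed at the end. DESeq2 left 1010 adjusted p-values undefined, and they were kept so. Named are all members, all IRG genes in the table, up to 4 genes per list with the smallest p, Ifng, Ifngr1, Ifngr2, Irf1, Ccnd1 and the 10 genes most like the members. A result of the pathway is not reported here. The fits were tested on simulated counts. Intervals from depth cover counting error only. Sequences are from RefSeq (GRCm38.p6), and exon lengths and shared stretches from GENCODE M21. Figures were drawn with matplotlib 3.10.9.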

Additional observations from a re-analysis of the deposited data

Results flagged for a closer look

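A library at a distance from the rest of its group was found in 14 of 181 sets of values of named genes, and about 9.05 are found by chance. In library B of sgRosa26, which was highest for 6 of the 7 IRG members, Gm4841 reached 127 normalized counts, where the remaining controls had 20.9 to 33.8. The same library stood apart in Cd274 (109 against 59.1 to 65.2), Cxcl10 (251 against 62.9 to 83.6), Ubd (74.5 against 6.80 to 14.1), Ctss (749 against 571 to 590) and Clec12a (94.7 against 73.8 to 77.0). In library D, Irf7 was at 1392 against 822 to 871 and Ifngr2 at 245 against 325 to 327.

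In the sgCcnd1 group, library E had Ccl5 at 83.1 normalized counts against 13.0 to 26.9, Tek at 150 against 98.0 to 112, Col3a1 at 515 against 273 to 341 and Col1a1 at 242 against 99.9 to 138. Gm5431 was at 12.8 in library I against 2.69 to 3.05 in the rest, and Ifnar2 at 1450 in library G against 920 to 1064. None of the 7 members had such a value in either group.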

How the results depend on the processing

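No paired analysis was possible because replicate numbers are missing from the column names. Each of the 7 members kept a fold change below 0 in all 20 to 23 alternatives that could give it a value. Filters on low values, pseudocounts, scalings, robust eBayes, array weights, edgeR and fits without 1 library called 0 members, and DESeq2 called 2 (0 without library H, a setting chosen after the data were seen). Members lower without overlap numbered 0, and 0 to 4 in fits that left out a library: Igtp and Irgm1 without C (3.26% of all genes), and also Ifi47 and Tgtp1 without E (4.25%). DESeq2 moved the genes lower from 1 to 76 and those higher from 0 to 41 (25 and 16 without H); lower genes were 2 with quantile normalization, 0 with edgeR without H and 0 to 2 without 1 library. Among the lists counted here, DESeq2 called 1 other IRG gene (0 without H), 2 guanylate-binding genes (1), 3 interferon-gamma targets (0), 7 type I targets (4) and 3 macrophage markers (2), against 0.585% of all genes (0.192% without H). The median of the other IRG genes was -0.39 with no filter, since genes of few reads then enter, and that of the inhibitors -0.1443 (without F) to 0.0237 (without E) in fits without 1 library and, without H, -0.00751 with DESeq2 and -0.00897 with edgeR; the cause was not tested. The sign turned for F830016B08Rik (-0.0136 without C, -0.0833 without G, at most 0.156, without D) and Irgq (0.0239 with array weights, 0.0759 without A, 0.0163 without F, 0.0675 without G, at least -0.0998, without E). Tgtp1 and Tgtp2 had too few reads for a value at a minimum mean of 100, and Tgtp2 had no adjusted p in DESeq2 without H.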

Other observations

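When each member was scaled to the same spread before averaging, 3 of the 10 genes most like the IRG members remained in the first 10 (H2-DMb1, Clec12a and Ctss) and 7 in the first 25. Those that left the first 25 were H2-Aa, H2-Ab1 and Tgfbi. The pseudogene BC023105 then came first (Pearson r = 0.971 over 9 libraries, as a description), ahead of H2-DMb1 (0.967) and Nr1h5 (0.966).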
